A study of Mus musculus with 17 samples.

Results

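The 8 genes described here belong to muscle calcium handling and were measured by RNA-seq in the mouse diaphragm: sarcolipin (Sln), phospholamban (Pln), the SERCA pumps Atp2a1 and Atp2a2, the ryanodine receptor Ryr1, the dihydropyridine receptor subunit Cacna1s, and the calsequestrins Casq1 and Casq2. They were chosen by symbol, with earlier results of these data known, and are 8 of the 47643 symbols measured. All 8 passed the filter for testing, at least 1 TPM in at least 3 samples, as did 13305 symbols in all. TPM is a measure of transcript abundance in which read numbers are corrected for gene length and every sample has the same sum, so levels of different genes can be compared. Sln had been singled out beforehand for its levels across the groups, and its values are therefore given without a test.

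The 17 mice were male C57BL/6J animals, 4 months old, in 4 groups. Control mice (n = 5) carried no tumor and received mock injections of PBS with BSA into the peritoneal cavity, and Control + rFibcd1 mice (n = 5) received recombinant Fibcd1, a secreted protein with a fibrinogen domain, by the same route. LLC mice (n = 3) carried tumors from Lewis lung carcinoma cells injected under the skin of the flanks and received mock injections, and LLC + rFibcd1 mice (n = 4) carried the same tumors and received rFibcd1. The comparisons ask how these transcripts differ between tumor-bearing and tumor-free mice, and whether rFibcd1 alters that difference. Each sample is treated as 1 mouse, and the spread between samples of a group is the error used throughout. The sources used here do not give a library batch or dissection day for each mouse, so neither could be tested.

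A muscle fiber contracts when calcium leaves its internal store, the sarcoplasmic reticulum (SR), and relaxes when calcium is pumped back. Depolarization is sensed by the dihydropyridine receptor in the surface membrane, which opens the ryanodine receptor in the SR. SERCA pumps return calcium to the store at the cost of ATP, calsequestrin binds it there, and the small membrane peptides sarcolipin and phospholamban slow the pumps. In sarcolipin-rich muscle part of the pump's ATP use is released as heat. The diaphragm mixes fast and slow fibers, and Atp2a1 and Casq1 are the forms typical of fast fibers while Atp2a2, Casq2 and Pln are typical of slow fibers and heart.

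The coding sequences of the SERCA-inhibiting peptides are shown because they make plain how short these messages' reading frames are and how little sequence they share, which bears on whether reads could be assigned to the wrong one. They come from the GENCODE vM21 transcripts, 5′ to 3′, with the stop codon. Sln codes for 31 amino acids (96 bases) and Pln for 52 (159 bases). Capitals mark the longest stretch of bases found in both coding sequences, 8 bases that start at base 25 of Sln and base 94 of Pln.
Sln: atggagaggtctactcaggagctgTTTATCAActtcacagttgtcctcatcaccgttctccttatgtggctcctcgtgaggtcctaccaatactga
Pln: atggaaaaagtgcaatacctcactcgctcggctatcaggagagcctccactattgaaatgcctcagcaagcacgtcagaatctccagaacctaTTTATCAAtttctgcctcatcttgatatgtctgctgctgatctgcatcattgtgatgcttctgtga

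The remaining members also differ enough to be counted apart. The longest identical stretch between the transcripts of Atp2a1 and Atp2a2 is 44 bases, and between those of Casq1 and Casq2 it is 25 bases. No stretch of 50 bases is shared within either pair, and reads under that length had been discarded. Pln overlaps Cep85l on the opposite strand, and Cep85l reached 13.6 TPM, above every value of Pln. Whether the counting used the strand is not settled by the sources, so the Pln values are uncertain in this respect.

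The depth recovered from the low values was 50.6 to 54.5 per sample, in units of 1000000 reads. For the members other than Pln, counting error was therefore small next to the spread between mice: the lowest value of Casq2 stood for 8217 reads and that of Atp2a1 for 455800 reads. Pln rested on 140 to 317 reads per mouse, a counting error of 8.45% at the lowest. Mitochondrially encoded transcripts took 41.29% to 50.41% of TPM, least in LLC replicate 3, which raises the TPM of the other genes in samples where that share is small. The median change of all genes tested was 0.16 on the log2 scale in LLC against Control, and it is given beside the members' medians.

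Markers of both fiber types were present. The summed level of 9 fast fiber markers ran from 40600 to 44100 TPM in Control and 39400 to 44600 in Control + rFibcd1, but from 33600 to 36000 in LLC and 34400 to 39200 in LLC + rFibcd1, so both tumor-bearing groups lay below every tumor-free mouse. Not every marker followed the sum. Myh4 averaged 904.9 ± 475 TPM in Control and 1313 ± 224 in LLC, and Actn3 255.2 ± 83.0 and 269.9 ± 61.5. The other fast markers had lower means in LLC, with overlapping ranges for Myh2 and Myl1. The 7 slow fiber markers overlapped between all groups, with extremes of 1640 and 2940 TPM that both came from Control + rFibcd1. Cardiac markers were near 0, with a summed level of 2.85 to 13 TPM over 7 genes, and Nppa and Nppb were under 1 TPM in every mouse. The 6 B cell markers summed to 2.36 to 95.3 TPM in Control, 3.35 to 133 in Control + rFibcd1, 215 to 275 in LLC and 17.6 to 272 in LLC + rFibcd1. In bulk RNA, fewer cells of a type and less RNA per cell cannot be told apart. Other tissue also varied. White fat markers summed to 809 to 2910 TPM in Control and 1830 to 7560 in LLC, and smooth muscle markers to 152 to 185 and 182 to 530. The part of fat and smooth muscle in the values below was not tested. That of fiber and immune content was examined only by the alternative fits named beside them.

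In Control mice the members spanned a wide range of levels. Atp2a1 was the highest at 6438 ± 282 TPM (SD, n = 5), followed by Sln at 917.7 ± 94.3, Casq1 at 736.9 ± 46.2, Atp2a2 at 489.3 ± 44.5, Ryr1 at 276.9 ± 14.0, Cacna1s at 237.0 ± 9.79, Casq2 at 183.8 ± 21.6 and Pln at 3.05 ± 0.312. Every neighbouring pair in this order was without overlap between the 5 mice. The order was the same in Control + rFibcd1 and in LLC, but there the ranges of Sln and Casq1 overlapped, as did those of Ryr1 and Cacna1s in the former and of Casq1 and Atp2a2 in the latter. In LLC + rFibcd1, Atp2a2 (722.4 ± 141 TPM, n = 4) ranked above Casq1 (570.0 ± 71.5), with overlapping ranges.

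**Figure D1:**
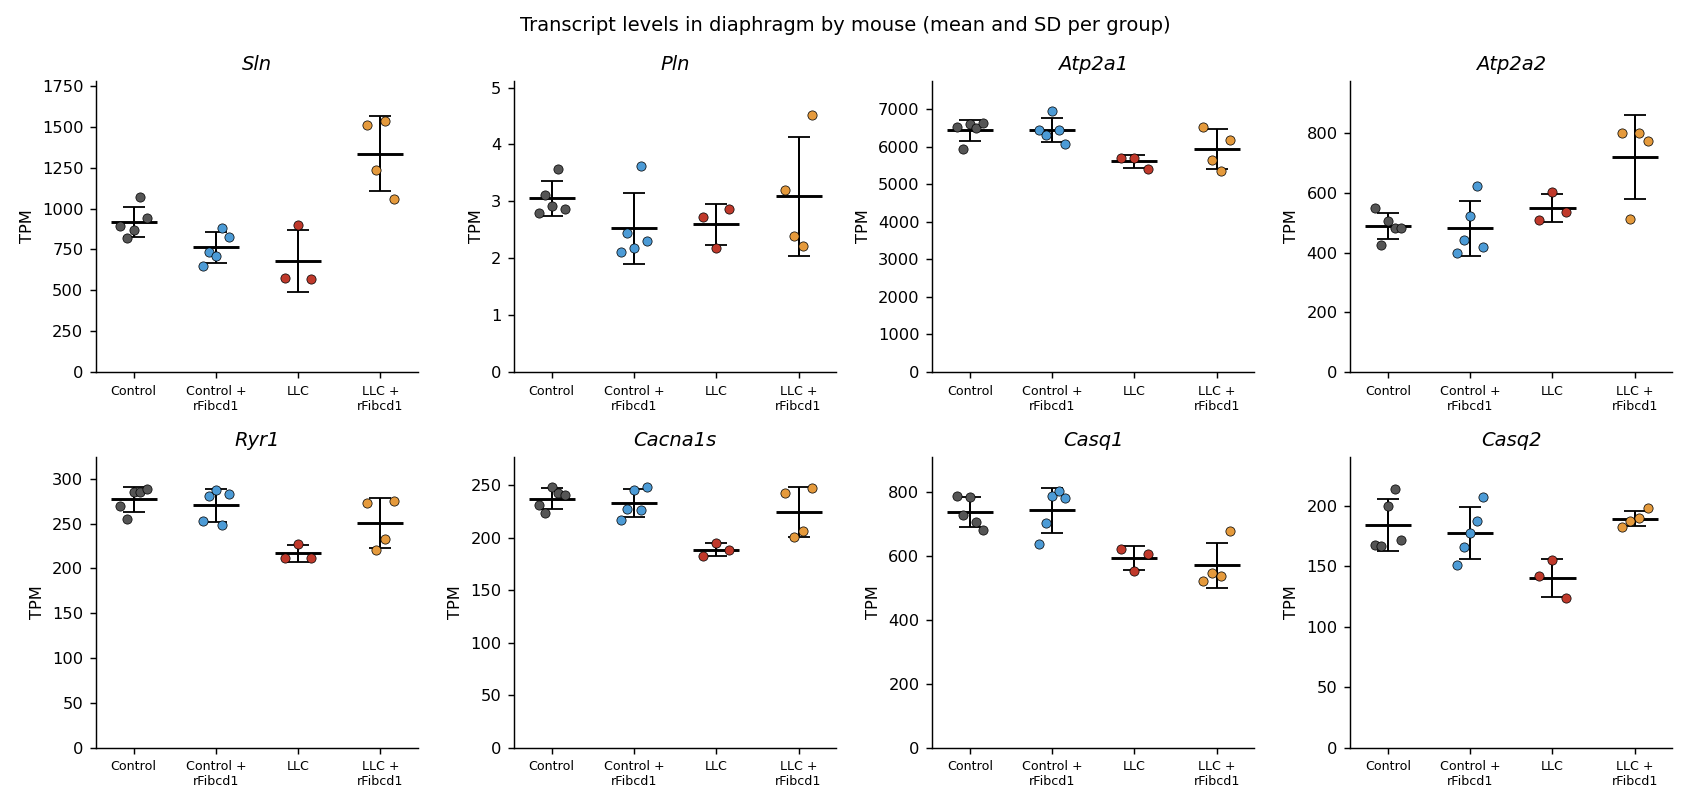
TPM of each of the 8 genes (y axes from 0, linear) in every mouse, by group. Points are mice, the wide bar is the mean and the error bar the SD. The mean of Sln is highest in LLC + rFibcd1, and Atp2a1, Ryr1, Cacna1s, Casq1 and Casq2 lie lower in the 3 LLC mice than in any Control mouse.

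Sarcolipin (ENSMUSG00000042045, chr9:53850164-53854560, plus strand, GRCm38) had its lowest and its highest group mean in the tumor-bearing groups. It stood at 892, 822, 867, 1068 and 939 TPM in Control replicates 1 to 5, and at 651.5, 737, 711, 883 and 827 TPM in Control + rFibcd1 replicates 1 to 5. The LLC mice had 574, 897 and 567 TPM, and the LLC + rFibcd1 mice had 1508, 1239, 1538 and 1060 TPM. LLC replicates 1 and 3 lay below every tumor-free mouse while LLC replicate 2 lay within the Control range. All 4 LLC + rFibcd1 mice lay above all LLC mice, and 3 of them above every other mouse of the study. The LLC + rFibcd1 mean was 1.97-fold the LLC mean and 1.46-fold the Control mean, and the LLC mean was 0.740-fold the Control mean. On the log2(TPM + 1) scale the differences were -0.46 ± 0.16 (SE) for LLC against Control, 0.99 ± 0.16 for LLC + rFibcd1 against LLC and -0.27 ± 0.14 for Control + rFibcd1 against Control. Leaving out 1 mouse at a time kept the second of these between 0.88 and 1.21, and the first between -0.68 and -0.35.

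Phospholamban (ENSMUSG00000038583, chr10:53337667-53345987, plus strand), the regulator best known from heart, was low throughout. Its extremes over the 17 mice were 2.10 TPM, in Control + rFibcd1 replicate 1, and 4.52 TPM, in LLC + rFibcd1 replicate 4. The groups overlapped in every comparison. The difference between LLC and Control was -0.18 ± 0.16 (log2, limma adjusted p = 0.406), and that between LLC + rFibcd1 and LLC was 0.16 ± 0.17 (adjusted p = 0.540).

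The fast fiber pump Atp2a1 (SERCA1, ENSMUSG00000030730, chr7:126445858-126463108, minus strand) was lower in LLC than in Control. Control replicates 1 to 5 had 6522, 5943, 6601, 6500.1 and 6625 TPM, and LLC replicates 1 to 3 had 5699, 5709 and 5411 TPM, so that the highest LLC mouse lay below the lowest Control mouse. The change was -0.20 ± 0.06 (limma adjusted p = 0.0237), and the LLC mean was 12.9% below the Control mean. It passed in 5 of 11 alternative fits, and was lost without a filter on low values (adjusted p = 0.0823) and under quantile normalization (-0.17, adjusted p = 0.182). The change itself shrank to -0.08 with fiber marker scaling (adjusted p = 0.576) and to -0.08 with the B cell score (adjusted p = 0.552), and the replicate block and Dunn's test also lost the call. The Control + rFibcd1 mice ranged from 6082 to 6962 TPM. LLC + rFibcd1 mice had 6535, 5652, 5352 and 6187 TPM and overlapped both Control and LLC. Their difference from LLC was 0.08 ± 0.06 (adjusted p = 0.424).

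The slow fiber and cardiac pump Atp2a2 (SERCA2, ENSMUSG00000029467, chr5:122453513-122502225, minus strand) rose in tumor-bearing mice, alone among the 7 members tested. Control mice had 549, 426, 506, 482 and 484 TPM, and Control + rFibcd1 mice 399, 442, 523.5, 623 and 418 TPM. LLC mice had 509.5, 603 and 536 TPM, within the range of the tumor-free mice. LLC + rFibcd1 mice had 801, 512, 801 and 776 TPM, so replicates 1, 3 and 4 lay above every other mouse and replicate 2 lay among them. Tumor-bearing against tumor-free mice differed by 0.40 ± 0.11 (limma adjusted p = 0.00879), whereas LLC against Control differed by 0.17 ± 0.16 (adjusted p = 0.408). The difference between LLC + rFibcd1 and LLC was 0.37 ± 0.16 (adjusted p = 0.210 by limma). The slow fiber markers summed to 2792, 1664, 2211 and 2544 TPM in LLC + rFibcd1 replicates 1 to 4, lowest in the same replicate 2, and the part of slow fiber content was not tested. The tumor difference was lost under median-ratio scaling (0.25, adjusted p = 0.170) and quantile normalization (0.31, adjusted p = 0.0509), and stood at the threshold without mitochondrially encoded genes (0.32, adjusted p = 0.05).

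The release channel Ryr1 (ENSMUSG00000030592, chr7:29003344-29125179, minus strand) and its voltage sensor Cacna1s (ENSMUSG00000026407, chr1:136052750-136119822, plus strand) fell side by side in LLC mice. Ryr1 was at 270.0, 255, 286, 285 and 288 TPM in Control and at 212, 228 and 211 TPM in LLC. Cacna1s was at 231, 223, 248, 242 and 240.2 TPM in Control and at 182, 195 and 189 TPM in LLC. For both genes all 3 LLC mice lay below all 5 Control mice. The change was -0.35 ± 0.08 for Ryr1 (adjusted p = 0.0104) and -0.33 ± 0.07 for Cacna1s (adjusted p = 0.00996), both by limma, and the means were 21.7% and 20.4% lower. Each passed in 7 of 11 alternative fits and was lost with the replicate block (adjusted p = 0.0612 and 0.0596), by Dunn's test, with fiber marker scaling, with the B cell score and without LLC replicate 3, fits that called 0 to 24 genes of all.

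With rFibcd1 the levels of these receptors in tumor-bearing mice were nearer to Control, without passing the adjusted threshold. Ryr1 was at 273, 220.4, 233 and 276 TPM in LLC + rFibcd1, where replicate 2 overlapped the LLC range. Cacna1s was at 242, 200.5, 207 and 248 TPM, above all 3 LLC mice. Against LLC the differences were 0.20 ± 0.08 for Ryr1 (adjusted p = 0.200) and 0.24 ± 0.07 for Cacna1s (adjusted p = 0.164) in limma. In both genes LLC + rFibcd1 replicates 1 and 4 were the high pair and replicates 2 and 3 the low pair. The summed fast fiber markers and Atp2a1 were split in the same way, the former at 39170 and 38389 TPM in replicates 1 and 4 and at 35260 and 34423 TPM in replicates 2 and 3. The B cell markers were split in the opposite way, at 17.6 and 21.0 TPM in replicates 1 and 4 and at 125 and 272 TPM in replicates 2 and 3. The part of either marker set in the receptors' values was not tested within this group.

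The calsequestrins, which bind calcium inside the store, both fell in LLC mice. Casq1 (ENSMUSG00000007122, chr1:172209894-172219868, minus strand) was at 786, 728, 782, 707 and 681 TPM in Control and at 621, 552 and 607 TPM in LLC. Casq2 (ENSMUSG00000027861, chr3:102086415-102146514, plus strand) was at 168, 166, 199, 214 and 171 TPM in Control and at 142, 155 and 124 TPM in LLC. The LLC mice lay below all Control mice for both genes. The changes were -0.31 ± 0.09 for Casq1 (adjusted p = 0.0186) and -0.39 ± 0.10 for Casq2 (adjusted p = 0.0151) by limma. These calls too passed in 7 of 11 alternative fits and were lost in the same ones as those of Ryr1 (adjusted p = 0.0716 and 0.0667 with the block), and that of Casq1 also without LLC replicate 2.

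In LLC + rFibcd1 mice Casq1 was at 521, 546, 537 and 676 TPM. These overlapped the LLC range and lay below all Control mice, and the difference from LLC was -0.06 ± 0.09 (limma adjusted p = 0.667). Casq2 was at 182, 188, 190 and 198 TPM, above all LLC mice and inside the Control range. Its difference from LLC was 0.43 ± 0.11 (adjusted p = 0.126 by limma), a mean 34.9% above that of LLC.

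**Figure D2:**
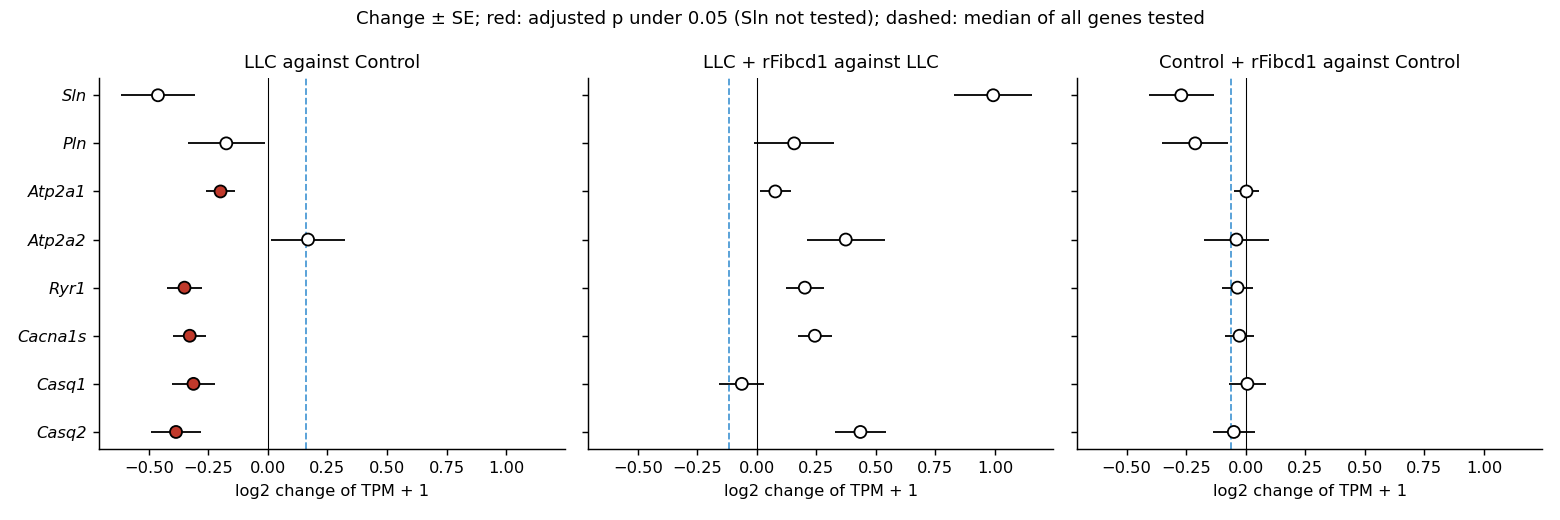
Change of each gene on the log2(TPM + 1) scale (x axis) with its SE, in 3 pairwise comparisons. Filled points passed an adjusted p of 0.05 by limma, Sln was not tested, and the dashed line is the median of all 13305 genes; 5 genes are filled in LLC against Control and none in the comparisons of rFibcd1 with mock injection.

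Counted over the 7 members other than Sln, 5 fell in LLC against Control and 0 rose (limma, adjusted p under 0.05). Of all genes tested, 6.02% fell and 29.7% rose in that comparison, 35.8% in all. The same 5 genes were without overlap between the groups, all lower in LLC, as were 6.67% of all genes, beside 33.6% that were all higher. The median change of the 7 was -0.31, beside 0.16 for all genes. The members were chosen with earlier results of these data known. Their counts beside all genes, here and in the other comparisons, are therefore descriptions, and the list itself was not tested. Without LLC replicate 3, 0 of the 7 passed the adjusted threshold and 5 passed an unadjusted p of 0.05. That fit called 24 of all 13305 genes, against 4759 with all mice, so calls were lost throughout. Also 0 passed when samples were scaled to the 16 fiber markers (5 of all genes called), and 0 with a B cell score as a covariate (9 of all genes called), with 1 and 3 at an unadjusted p. The changes themselves were smaller in these fits, at -0.23 and -0.20 for Ryr1, -0.21 and -0.19 for Cacna1s, -0.20 and -0.23 for Casq1 and -0.27 and -0.30 for Casq2. Both fits were added after the data were seen.

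In tumor-bearing against tumor-free mice, pooled over injections, Casq1 (-0.35 ± 0.06, adjusted p = 0.00135), Ryr1 (-0.22 ± 0.05, adjusted p = 0.00524), Cacna1s (-0.18 ± 0.05, adjusted p = 0.00871) and Atp2a1 (-0.16 ± 0.04, adjusted p = 0.00903) fell by limma, and Atp2a2 rose. That is 4 lower and 1 higher of 7, where 5.98% of all genes were lower and 38.8% higher, 44.8% together. For 0 of the 7 were the 7 tumor-bearing mice clear of the 10 tumor-free mice, which was so for 1.74% of all genes upward and 0.526% downward. The 5 calls held when any 1 mouse was left out, with a highest adjusted p of 0.0376 (Cacna1s). Casq1 was the member that also passed in each of the 9 alternative fits, with an adjusted p of at most 0.0421. Scaling to fiber markers left Casq1 and Atp2a2 past the threshold, and so did the B cell score. Atp2a2 did not pass under median-ratio scaling or quantile normalization, as given above, Atp2a1 did not pass under the latter (-0.14, adjusted p = 0.106), and under both Casq2 did (-0.26, adjusted p = 0.0433, and -0.22, adjusted p = 0.0385).

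**Figure D3:**
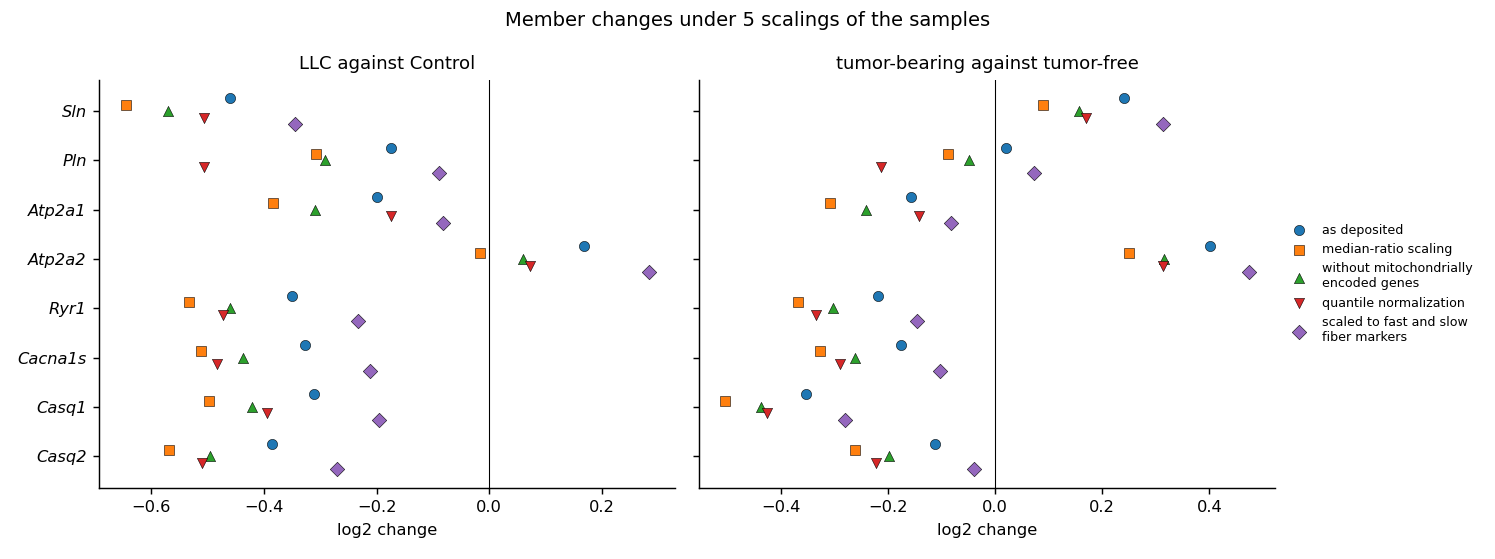
Log2 change of each gene (x axis) in 2 comparisons, LLC against Control and all tumor-bearing against all tumor-free mice, under 5 ways of scaling the samples, by symbol. Ryr1, Cacna1s, Casq1, Casq2 and Atp2a1 stay left of 0 under all 5 in both comparisons, while Atp2a2 in LLC against Control runs from -0.016 (median-ratio) to 0.284 (fiber markers).

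In LLC + rFibcd1 against LLC, 0 of the 7 passed the adjusted threshold in limma, where 0.113% of all genes did. At an unadjusted p under 0.05, 4 of them (Casq2, Cacna1s, Ryr1 and Atp2a2) were higher and 0 lower, beside 5.46% of all genes higher and 17.3% lower. Dunn's test gave 1 of 7 at an unadjusted p and 0 adjusted, and the other alternatives gave 2 to 4 unadjusted, with 2 under fiber marker scaling or the B cell score. Cacna1s and Casq2 were without overlap, 2 of 7, as were 5.26% of all genes in this direction and 9.3% in the other. The median change was 0.20 over the 7 and -0.115 over all genes. LLC mice enter this comparison and that with Control, so the values of the 2 comparisons are not independent.

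In tumor-free mice rFibcd1 left 0 of the 7 past the threshold, adjusted or not, in limma and 0 adjusted in Dunn's test. Of all genes tested 0.0% passed the adjusted threshold and 0.316% were higher and 4.07% lower at the unadjusted one. The differences ran from -0.21 (Pln, adjusted p = 0.927) to 0.01 (Casq1), and the groups overlapped for every member. Of all genes 0.00752% were without overlap upward and 0.804% downward. The difference between the rFibcd1 changes of tumor-bearing and tumor-free mice, an interaction term, also gave 0 of 7 at the adjusted threshold, and 0.0% of all genes. At an unadjusted p it gave 3, Casq2 (0.49 ± 0.14, adjusted p = 0.217), Cacna1s (0.27 ± 0.09, adjusted p = 0.333) and Ryr1 (0.24 ± 0.10, adjusted p = 0.521) in limma, all higher, beside 5.98% of all genes higher and 2.6% lower. The count was 1 under median-ratio scaling and 2 under quantile normalization, the replicate block, fiber marker scaling or the B cell score. Against Control, the LLC + rFibcd1 mice were without overlap for Casq1 only, 1 of 7, beside 2.92% of all genes lower and 5.96% higher.

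Ratios of TPM within a sample are not altered by multiplying a sample by a factor, though quantile normalization would alter them. The ratio of Sln to the sum of both pumps had a median of 0.129 in Control (0.122 to 0.153), 0.109 in Control + rFibcd1 (0.095 to 0.127), 0.0953 in LLC (0.0925 to 0.142) and 0.203 in LLC + rFibcd1 (0.152 to 0.25). There was thus less than 1 sarcolipin transcript for each pump transcript in every mouse, and the LLC + rFibcd1 mice lay above all LLC mice and overlapped Control at their lowest mouse. Atp2a1 exceeded Atp2a2 by a median of 13.5-fold in Control (11.9 to 14.0), 14.3-fold in Control + rFibcd1 (10.3 to 16.2), 10.1-fold in LLC (9.46 to 11.2) and 8.07-fold in LLC + rFibcd1 (6.68 to 11.0). Both tumor-bearing groups lay below all Control mice in this ratio.

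The ratio of Casq1 to Casq2 was lowest in LLC + rFibcd1 mice. Its medians were 3.98 in Control (3.3 to 4.68), 4.25 in Control + rFibcd1 (3.78 to 4.43), 4.38 in LLC (3.56 to 4.89) and 2.89 in LLC + rFibcd1 (2.83 to 3.42). The LLC + rFibcd1 mice lay below all LLC mice and overlapped the lowest Control mouse. Ryr1 to Cacna1s was the steadiest ratio, between 1.1 and 1.24 in all 17 mice, with group medians of 1.12 to 1.17. The ratios were described without a test, since their parts include Sln or were seen to move before the ratios were formed.

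**Figure D4:**
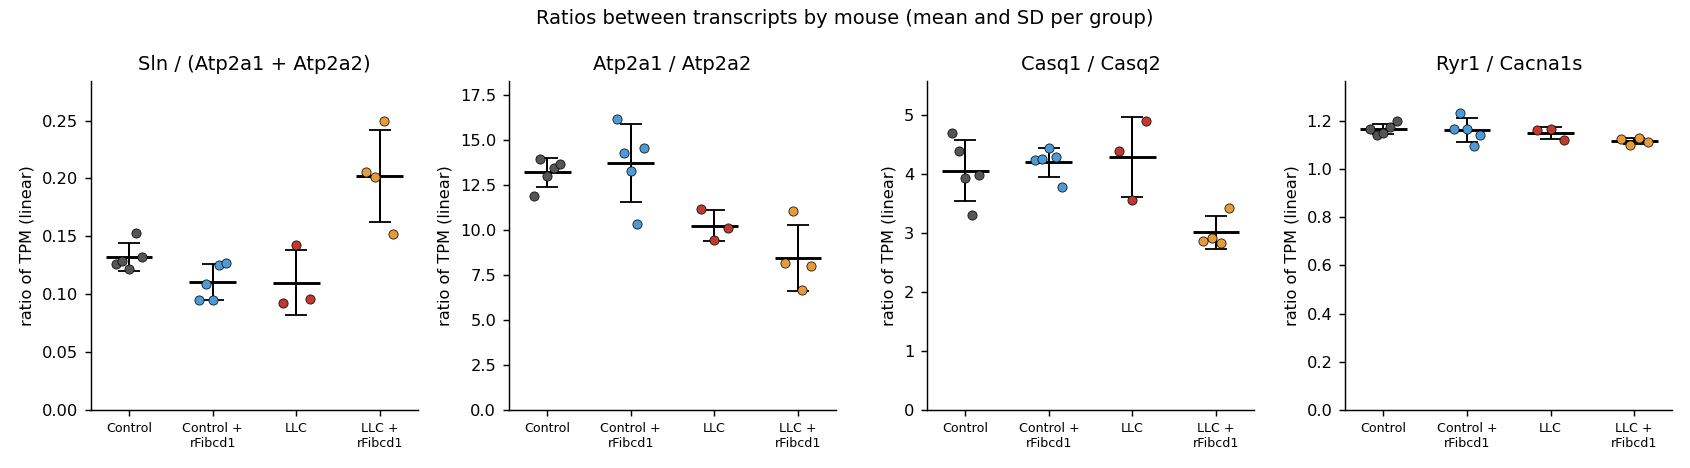
Ratio of TPM within each mouse (y axes from 0, linear) by group, for Sln to the summed pumps, Atp2a1 to Atp2a2, Casq1 to Casq2 and Ryr1 to Cacna1s. Points are mice, bars mean and SD. The medians of LLC + rFibcd1 are highest for the first ratio and lowest for the other ratios, while the fourth stays between 1.1 and 1.24.

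The genes whose log2 levels ran most like those of Sln over the 17 samples were Idh2 (Pearson r = 0.924), Gstm7 (0.908), Tsnax (0.895), Card14 (0.890) and Nnt (0.889), the highest among the other genes tested. Idh2 and Nnt encode mitochondrial enzymes that work in NADPH supply. Idh2 averaged 939.5 TPM in Control, 797.5 in Control + rFibcd1, 797.5 in LLC and 1137 in LLC + rFibcd1. The genes named here were picked for their likeness to Sln over the same samples, so a group order like that of Sln follows from the choice. Card14 averaged 0.623 TPM in Control and reached 1 TPM only in LLC + rFibcd1 mice, so it passed the filter through the group where Sln is high and its likeness to Sln is not independent of the filter. Among the members, r with Sln was 0.656 for Casq2, 0.640 for Atp2a2, 0.293 for Cacna1s, 0.202 for Pln, 0.177 for Ryr1, -0.0347 for Atp2a1 and -0.414 for Casq1. The points share the group structure, tissue composition and scaling of the samples, and the coefficients are descriptions only.

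The other genes of the pathway were taken as a list of 52, chosen by known role but with earlier results of these data known, and 50 were tested. Ryr2 and Ryr3, the cardiac and the minor ryanodine receptors, did not pass the filter on low values. In LLC against Control 11 of 50 rose and 13 fell (limma, adjusted p under 0.05), with a median of -0.05 beside 0.16 for all genes, of which 29.7% rose and 6.02% fell. Under median-ratio scaling 7 rose and 21 fell, and 52.7% of the 3941 genes it called were higher, against 83.2% as deposited. Without LLC replicate 3 the count was 0, with 24 at an unadjusted p, when 24 of all genes were called, and without LLC replicate 1 it was 12, when 2254 of all genes were called. In tumor-bearing against tumor-free mice 18 rose and 12 fell, with a median of -0.00198 beside 0.13, where 38.8% of all genes rose and 5.98% fell. Median-ratio scaling, which shifts all genes of a sample alike, gave 9 higher and 22 lower, and the higher share of the 4812 genes it called was 52.8%, against 86.7% of the 5963 called as deposited. In both comparisons with rFibcd1 and in the interaction 0 of 50 passed the adjusted threshold. At an unadjusted p, 8 were higher and 7 lower in LLC + rFibcd1 against LLC, 1 higher and 3 lower in Control + rFibcd1 against Control, and 8 higher and 0 lower in the interaction. Of all genes these were 5.46% and 17.3%, 0.316% and 4.07%, and 5.98% and 2.6%.

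The list of SR proteins of the junction and its surroundings, which takes in membrane tethers, lumenal proteins and SR channels, included several genes that fell in LLC mice. Of 11 tested, 6 fell and 0 rose in LLC against Control, and 5 fell and 1 rose with tumor pooled over injections. The summed fast fiber markers were lower in the same mice, though not each of them, as given above. With scaling to the fiber markers none of the 6 passed in LLC against Control, where all 5 genes still called were higher. Over all genes 6.02% fell and 29.7% rose in the former, and 5.98% and 38.8% in the latter. Jph1, a junctophilin that ties the membranes together, was at 57.2 ± 3.34 TPM in Control (n = 5) and 42.9 ± 1.29 in LLC (n = 3), a change of -0.40 ± 0.09 (limma adjusted p = 0.0102). Trdn, which anchors calsequestrin to the release channel, was at 170.2 ± 17.2 TPM in Control and 131 ± 5.09 in LLC (-0.37 ± 0.09, adjusted p = 0.0134 by limma). The second junctophilin, Jph2, fell by 0.33 in tumor-bearing mice (limma adjusted p = 0.00234). Of the 4 genes of dihydropyridine receptor subunits and partners, 2 fell and 0 rose in LLC against Control. One of them was Cacna2d1, which codes for the accessory alpha2-delta subunit, from 47.2 ± 6.99 to 32.7 ± 1.21 TPM (-0.50 ± 0.15, limma adjusted p = 0.0204).

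Among the SERCA family and its other regulators, 2 of 5 rose and 1 fell in LLC against Control, beside 29.7% and 6.02% of all genes. Atp2a3, the SERCA3 pump known from blood cells and endothelium, had the largest rise of the list on the log2(TPM + 1) scale, from 8.38 ± 2.61 TPM in Control to 25.8 ± 3.71 in LLC (1.55 ± 0.39, limma adjusted p = 0.0130), and stood at 14.4 ± 8.22 in LLC + rFibcd1 (n = 4). Mrln, which codes for myoregulin, a further small SERCA inhibitor of skeletal muscle, fell from 19.6 ± 0.414 to 13.9 ± 2.29 TPM (-0.49 ± 0.16, limma adjusted p = 0.0335). In Control + rFibcd1 Mrln was at 14.3 ± 2.63 TPM (n = 5), with every mouse below the Control mice, as were 0.804% of all genes. The difference did not pass the adjusted threshold (limma adjusted p = 0.927).

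Store-operated entry genes, which refill the store from outside, and the inositol trisphosphate receptors are given with the shares of all genes. Of 5 store-operated entry genes 3 rose and 1 fell in LLC against Control, where 29.7% of all genes rose and 6.02% fell, and Orai2, a channel subunit, went from 1.01 ± 0.273 to 3.44 ± 0.459 TPM (1.15 ± 0.24, limma adjusted p = 0.00996). Of 6 other release channels and their binding proteins 2 rose and 0 fell, near the share of all genes, led by Itpr3 from 3.78 ± 0.623 to 8.25 ± 1.93 TPM (0.94 ± 0.22, adjusted p = 0.0118 by limma). Of 6 genes of mitochondrial calcium uptake 1 rose and 0 fell, which was not tested against the share of all genes. The 1 was Mcub (listed under the older symbol Ccdc109b), from 2.85 ± 0.758 to 5.83 ± 0.787 TPM (0.84 ± 0.27, limma adjusted p = 0.0263). The summed B cell markers were higher in LLC than in any Control mouse, as given above. So were the 6 T cell markers, at 1.52 to 14.8 TPM in Control and 23.9 to 40.8 in LLC, and the 6 macrophage markers, at 211 to 466 and 757 to 832 TPM. Their part in these rises was not tested.

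Cytosolic buffers and sensors went both ways, with 2 of 9 higher and 2 lower in LLC against Control, and 2 higher and 3 lower for the tumor pooled over injections. Of all genes 29.7% rose and 6.02% fell in the former, and 38.8% and 5.98% in the latter. Pvalb, the parvalbumin that speeds relaxation in fast fibers, was lower in the latter (-0.49 ± 0.17, limma adjusted p = 0.0274), with means of 1513 TPM in Control, 1622 in Control + rFibcd1, 1355 in LLC and 962.5 in LLC + rFibcd1. Plasma membrane pumps and exchangers had 1 of 4 higher and 1 lower in both comparisons, against the same shares of all genes.

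**Figure D5:**
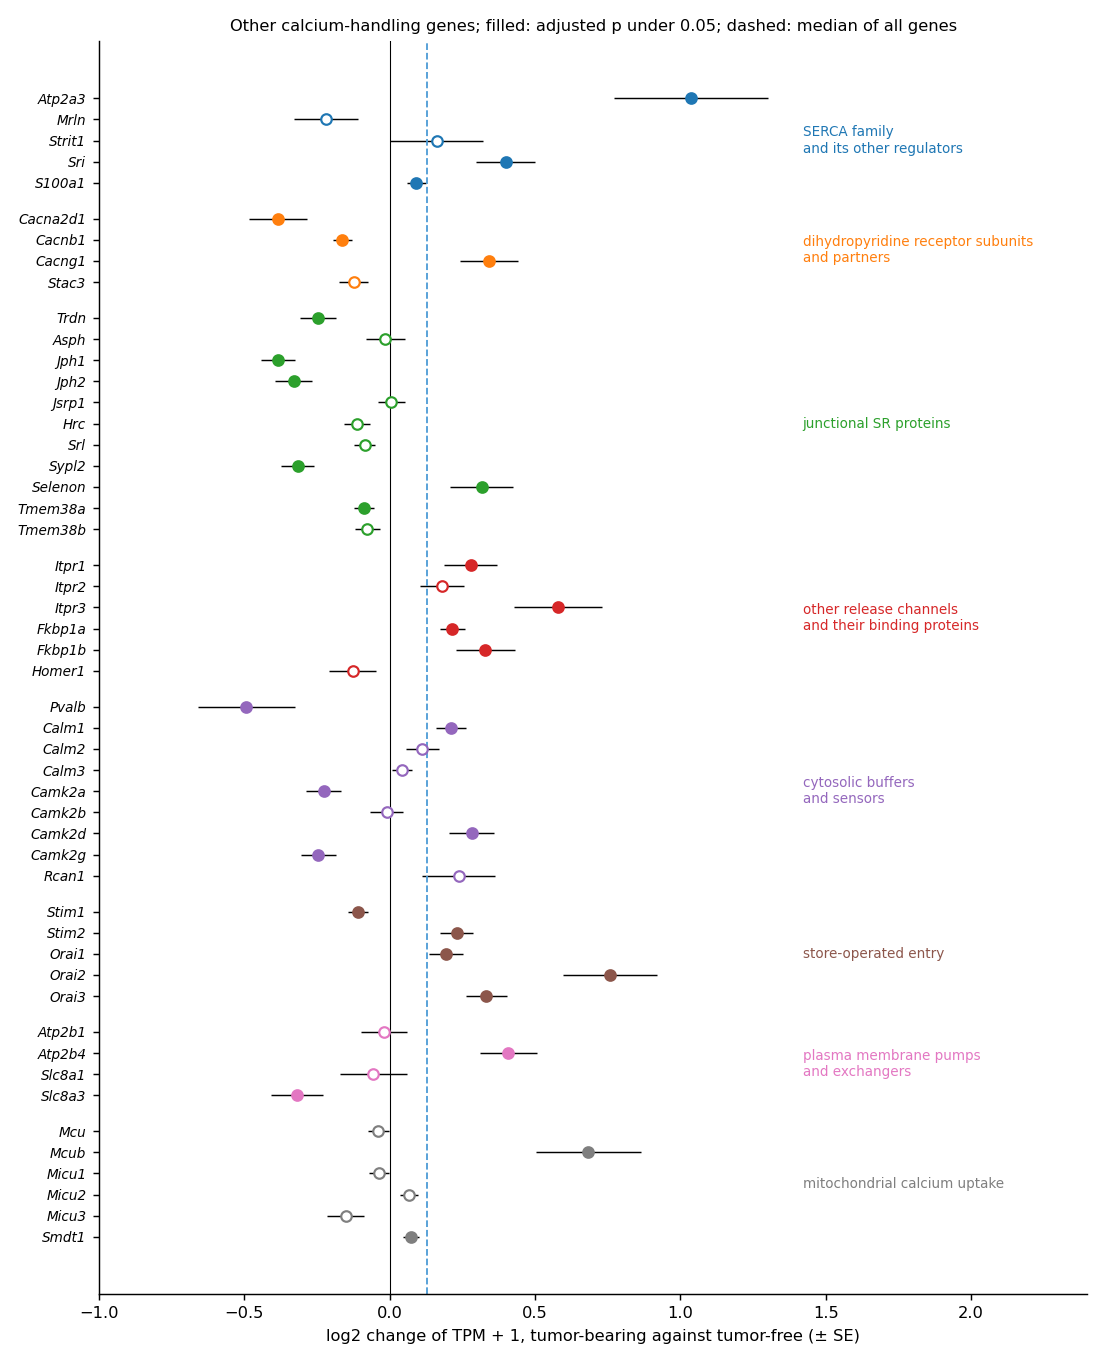
Log2 change of TPM + 1 in tumor-bearing against tumor-free mice (x axis, with SE) for the 50 other calcium-handling genes tested, grouped by role and colored accordingly. Filled points passed an adjusted p of 0.05 by limma (18 higher, 12 lower, beside 38.8% and 5.98% of all genes on the same scale), the dashed line is the median of all genes (0.13), and 5 of 11 junctional SR proteins are filled to the left of 0.

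The upstream sequences of Cacna1s and Casq1 are shown as examples of members that fell in LLC mice. Windows of the same length were read for Atp2a1, Ryr1 and Casq2, which also fell, and are not shown. The sequences below are the 250 bases before the RefSeq start of the gene on GRCm38.p6, 5′ to 3′ along the gene. Capitals mark E-boxes, CANNTG, the motif bound by myogenic regulatory factors, which reads the same on both strands. Cacna1s lies at chr1:136052561-136052810 (plus strand) and Casq1 at chr1:172219896-172220145 (minus strand).
Cacna1s: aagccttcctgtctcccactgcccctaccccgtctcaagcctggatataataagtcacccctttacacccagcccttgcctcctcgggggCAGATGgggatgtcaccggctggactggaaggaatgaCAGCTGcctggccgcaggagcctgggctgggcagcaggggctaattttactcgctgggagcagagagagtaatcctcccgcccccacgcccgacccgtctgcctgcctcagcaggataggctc
Casq1: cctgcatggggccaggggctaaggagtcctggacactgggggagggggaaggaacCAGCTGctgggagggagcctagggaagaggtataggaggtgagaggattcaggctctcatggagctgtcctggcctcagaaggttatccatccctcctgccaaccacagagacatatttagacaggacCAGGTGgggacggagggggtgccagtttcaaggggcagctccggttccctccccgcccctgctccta

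An entry was matched for 6 of the 8 members. An E-box was present in 5 of these 6, all but Ryr1, and in 66.2% of the 32851 windows of all genes, so its presence did not set the members apart. Cacna1s, Casq1 and Casq2 held 2 each, and Atp2a1 and Pln 1 each. These are matches of letters in a short window, and binding was not measured.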

How the data were processed

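RNA was sequenced from the diaphragm of 17 mice, whose titles give the group and a replicate number. The authors trimmed and filtered the reads, mapped them to GRCm38 and made per-gene values with CLC Genomics Workbench, deposited as TPM. The annotation release was not given in the sources used here, and the labels and the paper name different library kits, so strandedness is not settled. Because TPM shares a fixed sum, a change in abundant genes, such as mitochondrially encoded ones, shifts all others. All 17 columns had a sample.

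The 13305 genes that reached 1 TPM in 3 or more samples were tested on log2(TPM + 1) with limma 3.58.1 in R 4.3.3, with 4 groups in 1 fit, 13 residual degrees of freedom, an expression trend and two-sided tests. This scale understates changes of low genes. P-values were adjusted by Benjamini-Hochberg over all genes, at 0.05, for each of 5 contrasts. Tumor-bearing against tumor-free mice compares group means weighted by group size. limma was used in place of the rank tests of the study, and Dunn's test was an alternative. The test was checked on simulated data.

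Depth was estimated from the steps of low TPM values with GENCODE vM21 exon lengths: 81.9% to 84.8% of low values came within 0.02 of a whole read, where chance gives 4.0%. Correlations between any pair of samples were at most 0.99367, so no library appeared to be present in duplicate. Alternatives were the pseudocount, the filter, the scaling, the trend, the replicate block, the samples in the fit, Dunn's test and leaving out each mouse, and, added after the data were seen, scaling to fiber markers and a B cell score. All members are named, and of the other calcium genes those past the threshold with the largest change, at most 4 a direction in a contrast, and the 5 genes most like Sln. The members and lists were chosen with earlier results of these data known.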

Additional observations from a re-analysis of the deposited data

Results flagged for a closer look

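Of 24 sets of 4 or 5 mice of a group, 1 set for each member and group, 4 held a mouse that lay far from the rest by Dixon's criterion, where chance gives about 1 in 20 sets. Pln in Control + rFibcd1 was highest in replicate 4, at 3.62 TPM, the mouse with the highest slow fiber sum (2942 TPM). Atp2a1 in Control was lowest in replicate 2, at 5943 TPM. Atp2a2 in LLC + rFibcd1 was lowest in replicate 2, at 512.0 TPM, the mouse of that group with the lowest slow fiber sum (1664 TPM). Casq1 in LLC + rFibcd1 was highest in replicate 4, at 676 TPM. The LLC group of 3 was not examined in this way.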

How the results depend on the processing

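Of 1414 values and counts under alternatives, 1333 were classed as unchanged. For tested changes that meant the same direction and side of the threshold. For Sln and the ratios, which have no test, it meant a shift of less than the SD within groups. Counts of genes called were allowed to differ somewhat, as from 5 to 4. In LLC against Control the 5 members called became 0 with the replicate block (5 at an unadjusted p), 0 by Dunn's test (5 unadjusted), 0 with scaling to fiber markers (1 unadjusted) and 0 with the B cell score (3 unadjusted), and 0 to 5 when each mouse was left out. These 4 fits called 5, 0, 5 and 9 of all genes, against 4759. With the block and Dunn's test the changes stayed about as large (Ryr1 -0.323 and -0.35), and with fiber marker scaling and the B cell score they shrank (Ryr1 -0.234 and -0.201, Atp2a1 -0.0827 and -0.075). Adjusted p of the 5 ran from 0.0596 to 0.0768 with the block. Besides LLC replicate 3, without which all 5 calls were lost, leaving out LLC replicate 2 lost Casq1, and leaving out LLC replicate 1 or Control replicate 5 lost Atp2a1. The other calcium genes called there ranged from 0 to 26. In tumor-bearing against tumor-free mice the 5 members called became 2 with fiber marker scaling and 2 with the B cell score. The cause was not tested.

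Replicate numbers are shared between groups, but 22 same-numbered pairs had a median correlation of deviations of -0.061 (-0.459 to 0.485, 4 over 0.1), beside -0.0255 for 85 other pairs. The medians show no pairing by number. With so few mice in a group they cannot exclude a day or batch shared by mice of the same number. With the replicate block, 5 members were called in tumor-bearing against tumor-free mice.

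Changes that turned direction were all of members that had not passed the threshold in that comparison. Under median-ratio scaling these were Pln in tumor-bearing mice (-0.0876), Atp2a2 in LLC against Control (-0.016), Casq1 in LLC + rFibcd1 against LLC (0.0618), and Atp2a2 (0.0359), Ryr1 (0.0403), Cacna1s (0.0486) and Casq2 (0.0248) in Control + rFibcd1 against Control. Pln in tumor-bearing mice turned without mitochondrial genes (-0.0482) and under quantile normalization (-0.212), and Atp2a1 in Control + rFibcd1 against Control under the latter (-0.0293). With fiber marker scaling the Atp2a1 interaction was -0.000879. With the B cell score, Pln in LLC against Control was 0.0561, Atp2a1 in LLC + rFibcd1 against LLC was -0.00655, and Atp2a1 and Casq1 in Control + rFibcd1 against Control were -0.0192 and -0.00705. Leaving out a mouse turned Pln in tumor-bearing mice (all such fits -0.0678 to 0.0643) and, in Control + rFibcd1 against Control, Atp2a1 (-0.0259 to 0.0236), Atp2a2 (-0.137 to 0.0231), Casq1 (-0.0223 to 0.0599) and Casq2 (-0.107 to 0.00674).

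Scaling moved the share of higher calls among all genes in LLC against Control from 83.2% to 52.7% (median-ratio), 64.2% (without mitochondrial genes) and 32.2% (quantile). Pln rests on the fewest reads of the members.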
